A study of Mus musculus with 8 samples.

Results

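The 10 genes described here belong to the actomyosin apparatus of smooth muscle and nonmuscle cells. Their expression was followed in the atrioventricular canal of mouse hearts in which endothelium and its descendants were, or were not, meant to lose Gata4. The genes were taken by name: Acta2, Tagln, Tagln2, Cnn1, Cnn2, Myl9, Tpm2, Myh9, Myh10 and Myh11. Every probe set that the platform's annotation ties to 1 of these symbols alone was used, which gave 23 of the 45101 probe sets of the array. Of the 23, 18 probe sets for 9 genes were bright enough to be tested, and both probe sets of Myh11 and 1 each of Acta2, Tagln2 and Myh9 were too dim.

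The 4 control pools came from Gata4flox/flox mice, in which the floxed alleles are intact, and the 4 mutant pools from Gata4flox/flox mice with the T2Cre transgene (Gata4T2del). T2Cre drives Cre recombinase from the promoter of Tie2, which is active in endothelial cells, so that endothelium and the cushion mesenchyme derived from it are the cells meant to lose Gata4. The controls are not described as carrying T2Cre, so the effects of Gata4 loss and of the transgene cannot be told apart. Each sample pooled 10 microdissected canals of a mixed C57BL6/129 background, and 50 ng of its total RNA was amplified and hybridised to 1 Affymetrix array. No age of the embryos is stated in the labels. The design text speaks of 2 control samples left out as noisy without naming them, while values of 4 control arrays were at hand, and all were used. That the pools came from separate litters is not stated, so p-values measure the spread between these pools.

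Cells contract by sliding bundles of actin over filaments of myosin II, a motor built of paired heavy chains and of essential and regulatory light chains. Phosphorylation of the regulatory light chain switches the motor on, while tropomyosin, calponin and transgelin bind along the actin filament and tune its access. Smooth muscle uses dedicated forms (Acta2, Tagln, Cnn1, Myh11), many of them driven by serum response factor and its partner myocardin through CArG boxes, and other cells use general forms (Tagln2, Cnn2, Myh9, Myh10). Embryonic cardiomyocytes also make Acta2 and Tagln for a time, and endocardial cells that turn into cushion mesenchyme gain Acta2.

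RefSeq promoter sequences of GRCm38.p6 were held for 8 of the 10 genes. The CArG box was searched in the 250 bases before each start, in its strict form (CC, a core of 6 bases that are all A or T, then GG) and in a looser form in which 1 core base may differ. The box reads the same on both strands in form, so a single pass covers both. A strict box was found in Cnn2 and Myl9, and a box of either form also in Acta2, while Tagln2, Cnn1, Tpm2, Myh9 and Myh10 had neither in this window. Of all 32851 promoters, 1.47% held a strict box and 8.59% a box of either form. The 170 bases before the start are shown for the genes whose mutant and control values are set apart most clearly below (Myl9, Cnn2 and Tagln2) and for Acta2, the best-known smooth muscle gene, with boxes in capitals. They lie at chr2:156775294-156775463, plus strand (Myl9), chr10:79988430-79988599, plus strand (Cnn2), chr19:34255374-34255543, minus strand (Acta2) and chr1:172500076-172500245, plus strand (Tagln2).
Myl9: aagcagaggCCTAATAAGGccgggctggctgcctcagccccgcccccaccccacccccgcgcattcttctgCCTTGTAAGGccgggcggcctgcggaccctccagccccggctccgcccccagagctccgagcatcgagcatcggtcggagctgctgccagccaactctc
Cnn2: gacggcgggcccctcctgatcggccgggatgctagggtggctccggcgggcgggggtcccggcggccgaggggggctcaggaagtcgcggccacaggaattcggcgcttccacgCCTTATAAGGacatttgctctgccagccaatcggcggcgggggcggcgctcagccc
Acta2: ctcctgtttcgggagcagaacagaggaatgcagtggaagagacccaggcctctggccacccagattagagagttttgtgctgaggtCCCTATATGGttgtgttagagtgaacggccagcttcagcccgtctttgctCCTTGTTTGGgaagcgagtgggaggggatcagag
Tagln2: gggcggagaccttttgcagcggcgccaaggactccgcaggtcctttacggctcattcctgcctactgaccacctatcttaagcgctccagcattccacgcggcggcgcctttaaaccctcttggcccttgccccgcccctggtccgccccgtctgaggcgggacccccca
The strict boxes begin 161 bases before the start in Myl9 and 56 bases before it in Cnn2. The looser boxes begin 99 bases before the start in Myl9, and 84 and 34 bases before it in Acta2. A match describes the letters only and is not evidence of binding.

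The arrays were not equally clean. For each array a background limit was taken from 27 probe sets for bacterial genes, absent from mouse, as the value that 90% of them stay under, and "above background" means above it. Controls 2 and 3 had limits of 316 and 270, the other 6 arrays 21.4 to 97.5, so controls 2 and 3 hold the least information on dim genes. The fit gave them weights of 0.302 and 0.35, against 0.867 to 2.8 elsewhere. Gata4 itself, on its brighter probe set, had log2 values of 11.25 ± 0.17 in the controls and 11.12 ± 0.15 in the mutants (SD, n = 4 each, limma adjusted p = 0.585). Its dimmer probe set, above background on 2 control and 4 mutant arrays, changed by 0.98 (SE 0.46, limma adjusted p = 0.388). The Gata4 probe sets are not placed relative to the deleted part, so these values do not check the deletion.

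No contractile gene passed the threshold, but the genes did not all sit at the same place. The general calponin Cnn2 and the light chain Myl9 were higher on every mutant array than on any control array, by 1.27-fold and 1.20-fold. The general transgelin Tagln2 was lower on every mutant array, with controls 1.69-fold above mutants. Acta2, Myh9 and Myh10 had changes of 0.05, -0.05 and -0.05 on the log2 scale on their brightest probe sets. Myh11, the heavy chain of differentiated smooth muscle, was above background on no control array.

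All changes are log2 differences, mutant minus control, from limma fitted across 27022 probe sets, with Benjamini-Hochberg adjustment over all of them and a threshold of 0.05. In that fit 0.0444% of all probe sets passed, and 0 of the 18 contractile probe sets did. At an unadjusted p under 0.05, 5 of the 18 were higher and 1 was lower, or 27.8% and 5.56%, against 7.31% and 5.33% of all probe sets. The 5 comprise Cnn2, Myl9, Tpm2 on 1419738_a_at and 1425028_a_at, and a dim Acta2 probe set, so they are not 5 separate genes. That Acta2 probe set was above background on no control and 4 mutant arrays, and could pass the brightness filter through the mutants. Values of the groups did not overlap for 5 of the 18, with 4 higher (22.2%) and 1 lower (5.56%), against 4.44% and 3.19% of all probe sets (7.63% in either direction). The 4 comprise Cnn2, Myl9 and the Tpm2 probe sets 1425028_a_at and 1449577_x_at, which share a gene, so they are not 4 separate observations. Without controls 2 and 3, 7 of 18 did not overlap, 6 of them higher, against 16.4% of all probe sets. The median change of the 18 was 0.11 and that of all probe sets 0.03.

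**Figure D1:**
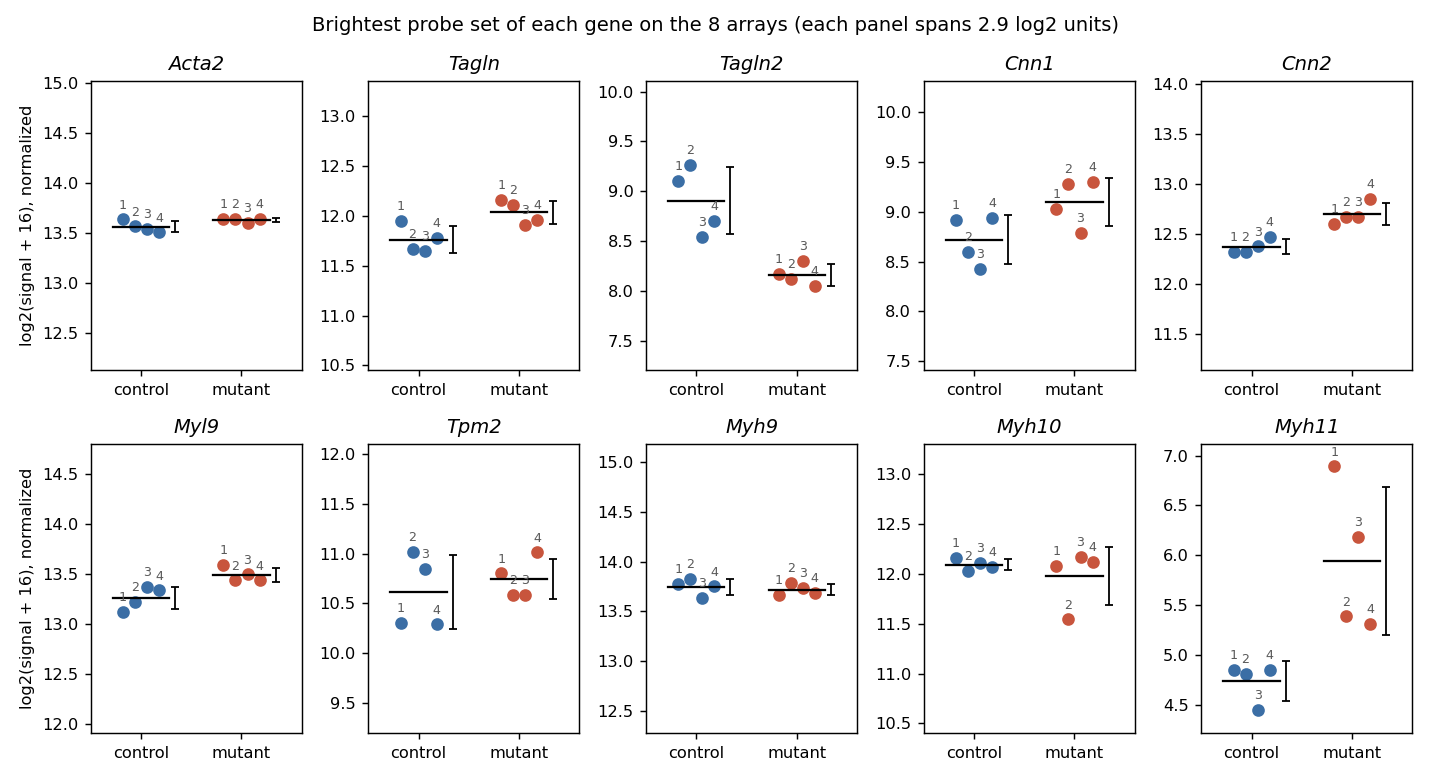
Normalized log2(signal + 16) of the brightest probe set of each gene on the 4 control (blue) and 4 mutant (red) arrays, numbered by replicate, with the group mean (line) and SD (bar, n = 4). Cnn2 and Myl9 are higher and Tagln2 lower on all mutant arrays, the values of Acta2, Tagln, Cnn1, Tpm2, Myh9 and Myh10 overlap between groups, and Myh11 is not above background in any control.

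Acta2 encodes smooth muscle alpha-actin. Its brightest probe set (1416454_s_at) read 13.63, 13.56, 13.54 and 13.50 in controls 1 to 4 and 13.64, 13.64, 13.60 and 13.64 in mutants 1 to 4. The mutant arrays were tightly packed near the top of the control range, and mutant 3 lay below control 1, so the groups overlapped. The change was 0.05 (SE 0.05, 95% interval -0.05 to 0.14, limma adjusted p = 0.679). The suffix s_at marks probes that can be shared with other transcripts. A second Acta2 probe set (1456658_at) was above background on 4 of 4 mutant and 0 of 4 control arrays, with 6.99 ± 0.25 in the mutants and 6.20 ± 0.71 in the controls (SD, n = 4). Set against the lowest level detectable on the control arrays, the mutant mean gives a lower bound of 1.03-fold, which was not itself tested. Control 3, at 7.01, lay above the mutant mean and within the mutant range, so the bound does not establish a higher level. The weighted change of this probe set did not pass the threshold (limma adjusted p = 0.375). The last probe set (1444105_at) was above background on 2 mutant arrays only and gave no size.

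The transgelins are small calponin-related proteins that bind and bundle actin, Tagln (SM22 alpha) in smooth muscle and Tagln2 in most cells. Tagln read 11.95, 11.67, 11.64 and 11.78 in the controls and 12.16, 12.11, 11.91 and 11.96 in the mutants. Mutant 3 lay below control 1, so the groups overlapped by that pair alone. The weighted change was 0.16 (SE 0.09, interval -0.02 to 0.35, limma adjusted p = 0.449), below the plain difference of 0.27. The lowest controls, 2 and 3, carry little weight, and the lowest mutants, 3 and 4, carry the most. With the RNA integrity covariate described below the change was 0.09, and without controls 2 and 3 it was 0.18.

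Tagln2 stood on the other side. On its brightest probe set (1426529_a_at) it read 9.11, 9.26, 8.55 and 8.70 in the controls and 8.17, 8.12, 8.30 and 8.05 in the mutants. The highest mutant lay below the lowest control, and the controls spread more widely than the mutants, with SDs of 0.34 and 0.11. The change was -0.76 (SE 0.21, interval -1.21 to -0.31, unadjusted p = 0.00236, limma adjusted p = 0.236). It was -0.85 without controls 2 and 3 (limma adjusted p = 0.469) and -1.05 on the authors' scaling (limma adjusted p = 0.0522). A second probe set (1420245_x_at), of a type whose probes can match other transcripts, differed with the controls that were used. It read 8.48 and 9.10 on controls 2 and 3 but 6.45 and 6.25 on controls 1 and 4, while the mutants ranged from 6.18 to 6.82. Its change of -0.58 (SE 0.46, limma adjusted p = 0.614) became 0.10 without controls 2 and 3. It was -2.02 without control 1 (limma adjusted p = 0.0372) and -1.84 without control 4 (limma adjusted p = 0.0442). Without control 1 or 4, however, 1680 and 1662 of all probe sets passed, against 12 in the main fit. The last Tagln2 probe set was above background on 1 mutant array and no control.

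The calponins bind actin and slow the myosin motor, Cnn1 in smooth muscle and Cnn2 in many cells that move or divide. Cnn2 read 12.32, 12.32, 12.37 and 12.47 in the controls and 12.60, 12.67, 12.67 and 12.85 in the mutants. The lowest mutant exceeded the highest control, and replicate spread was small in both groups (SD 0.07 and 0.11). Its change of 0.35 (SE 0.07, interval 0.19 to 0.50, limma adjusted p = 0.116) had the smallest p of the 18 probe sets, 0.00021 before adjustment. The direction was positive under all 17 limma alternatives without median centring, where the change ran from 0.28 to 0.48, and 5 of them took it past the threshold. These were the authors' scaling (adjusted p = 0.0420), the replicate block (adjusted p = 0.0497) and the limma fits without control 1, 3 or 4 (adjusted p = 0.0453, 0.0372 and 0.0328). In these 5 fits, in that order, 63, 60, 1680, 109 and 1662 of all probe sets passed, against 12 in the main fit. Without controls 2 and 3 the change of Cnn2 was 0.30 (limma adjusted p = 0.451).

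Cnn1, the smooth muscle calponin, read 8.92, 8.60, 8.43 and 8.94 in the controls and 9.03, 9.28, 8.79 and 9.30 in the mutants. Mutant 3 alone fell within the control range. The change was 0.23 (SE 0.21, interval -0.21 to 0.67, limma adjusted p = 0.665), and that interval also takes in the change of Cnn2. Whether the 2 calponins differ in response was not tested.

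Tpm2 encodes beta-tropomyosin, which lies in the groove of the actin filament in smooth and skeletal muscle. Its 4 probe sets gave differing pictures. On 1425028_a_at the controls read 9.80, 9.74, 9.91 and 9.83 and the mutants 9.97, 10.35, 10.03 and 10.33. On 1449577_x_at the controls read 9.47, 9.37, 8.995 and 9.67 and the mutants 9.82, 9.84, 9.67 and 9.84. On both, every mutant array exceeded every control array, though on the latter mutant 3 and control 4 agreed to 2 decimals. The changes were 0.34 (SE 0.14, limma adjusted p = 0.357) and 0.31 (SE 0.15, limma adjusted p = 0.410). The brightest probe set (1419738_a_at) had a change of 0.32 (SE 0.15, limma adjusted p = 0.394), but its controls split, with 10.31 and 10.29 on controls 1 and 4 and 11.01 and 10.85 on controls 2 and 3, and the mutants at 10.58 to 11.01 overlapped the latter. On 1419739_at the change was 0.02 (SE 0.16, interval -0.31 to 0.35, limma adjusted p = 0.964).

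**Figure D2:**
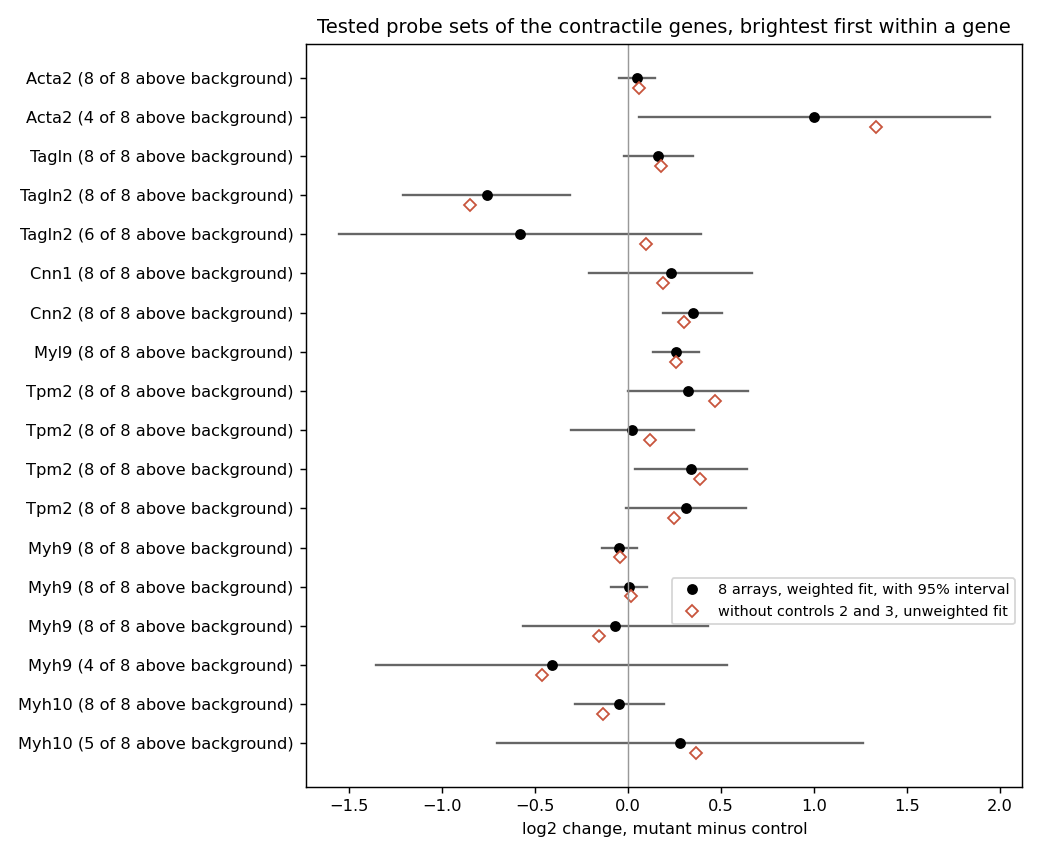
Log2 change, mutant minus control, of the 18 tested probe sets (black points, weighted limma fit, with 95% intervals) and the value without controls 2 and 3 (open diamonds), ordered by gene and, within a gene, by brightness. The narrow intervals of Cnn2 and Myl9 lie above 0. So do wider ones of Tpm2 (1419738_a_at and 1425028_a_at) and of Acta2 (1456658_at, above background on no control). The interval of the brightest Tagln2 probe set lies below 0, while bright probe sets of Acta2, Myh9 and Myh10 centre near 0.

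Myl9 encodes the regulatory light chain of smooth muscle and nonmuscle myosin II, the subunit whose phosphorylation starts contraction. It read 13.12, 13.22, 13.37 and 13.34 in the controls and 13.59, 13.44, 13.50 and 13.44 in the mutants. All mutant arrays exceeded all control arrays, and the SDs were 0.11 and 0.07. The change was 0.26 (SE 0.06, interval 0.14 to 0.38, unadjusted p = 0.000361, limma adjusted p = 0.144). It stayed positive under the 17 limma alternatives without median centring, from 0.17 to 0.36, and passed in 1, without control 3 (0.31, limma adjusted p = 0.0277). In that fit 109 of all probe sets passed, against 12 in the main fit. On the authors' scaling the change of Myl9 was 0.36 (limma adjusted p = 0.0518). Without controls 2 and 3 it was 0.26 (limma adjusted p = 0.451).

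Myh9 and Myh10 encode the heavy chains of nonmuscle myosin IIA and IIB, which power cell migration and division and, in the embryonic heart, cell shape. The brightest Myh9 probe set (1420172_at) read 13.78, 13.83, 13.64 and 13.75 in the controls and 13.66, 13.79, 13.73 and 13.69 in the mutants, and the groups lay within each other. Its change was -0.05 (SE 0.05, interval -0.14 to 0.05, limma adjusted p = 0.685). The next probe set (1420171_s_at) changed by 0.01 (SE 0.05, interval -0.09 to 0.10). A dimmer Myh9 probe set (1417472_at) changed by -0.07 (SE 0.24), and the 2 dimmest were above background on 2 control and 2 mutant arrays each.

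Myh10 read 12.16, 12.03, 12.11 and 12.07 in the controls and 12.08, 11.54, 12.17 and 12.12 in the mutants. Mutant 2 was the lowest of all arrays, and the other 3 mutants lay near the controls. The change was -0.05 (SE 0.11, interval -0.29 to 0.19, limma adjusted p = 0.888). The second Myh10 probe set was above background on 5 of 8 arrays and spread from 5.73 to 8.32 in the controls alone.

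Myh11 encodes smooth muscle myosin heavy chain, a defining marker of differentiated smooth muscle. On 1448962_at the controls read 4.85, 4.81, 4.45 and 4.85 and the mutants 6.89, 5.39, 6.18 and 5.31. The groups thus did not overlap on the normalized scale, as for 6.72% of all probe sets without the filter. Its deposited signals did overlap, at 4.2 to 46.3 in the controls and 10.8 to 98.7 in the mutants. Mutants 1 and 3 were above background on 1448962_at and no control was. On 1418122_at only mutant 3, at 6.59, was above background, and the other arrays read 4.65 to 5.25. Both probe sets were left out by the filter and no lower bound above 1 could be set for either. Without the filter 0 of the 23 contractile probe sets passed in limma. In that fit 8 of the 23 were at an unadjusted p under 0.05, against 6294 of all 45037 probe sets. Of the genes used to define smooth muscle, Acta2, Tagln and Cnn1 were thus above background on all 8 arrays on their brightest probe sets, and Myh11 was above it on no control.

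**Figure D3:**
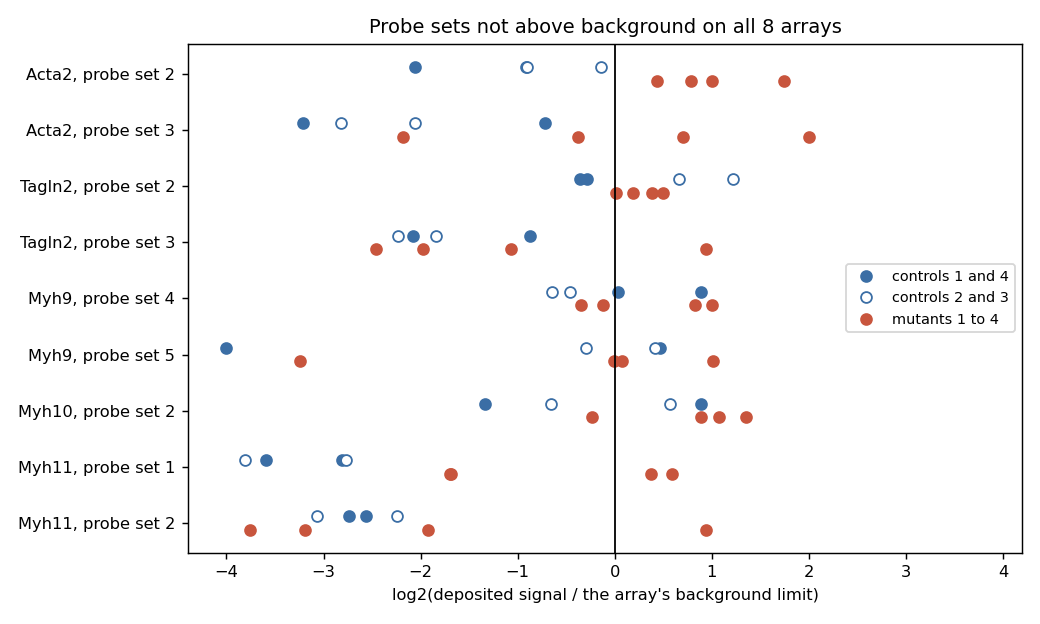
Deposited signal of the 9 contractile probe sets that were not above background on all 8 arrays, as log2 of its ratio to the background limit of the same array (vertical line at 0), for controls 1 and 4 (filled blue), controls 2 and 3 (open blue) and the mutants (red). No control passes the limit for either Myh11 probe set, and the second Tagln2 probe set is above it on controls 2 and 3 but not on controls 1 and 4.

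The rest of the apparatus was followed in a list of 44 actin, myosin II, calponin and regulator genes, of which 40 had a probe set and 38 were tested on their brightest one. None passed in limma. At an unadjusted p under 0.05, 4 were higher and 1 lower, or 10.5% and 2.63% of the 38, close to the 7.31% and 5.33% of all probe sets. Changes were positive for 23 (60.5%, against 53.8% of all probe sets) and negative for 15. Their median was 0.03, equal to that of all probe sets at this rounding. Groups did not overlap for 1 higher and 1 lower gene (2.63% each, against 4.44% and 3.19% of all probe sets).

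The 8 smallest p values in the list belonged to 7 genes with positive changes and 1 with a negative one. Myl6, the essential light chain that pairs with Myl9 in smooth and nonmuscle myosin, had the smallest, with 10.07 in the controls and 10.36 in the mutants. The weighted change was 0.52 (SE 0.16, limma adjusted p = 0.248), above the plain difference of 0.30. Its groups overlapped, with controls 2 and 3 at 10.26 and 10.44 and the mutants at 10.15 to 10.53. Myl6 passed in limma without control 3 (0.72, adjusted p = 0.0436), where 109 of all probe sets did, against 12 in the main fit. It also passed with arrays centred on their medians (1.71, adjusted p = 2.51e-08), where 35 of the 38 did. Tpm1, the alpha-tropomyosin of heart, did not overlap between groups, at 14.13 ± 0.02 and 14.23 ± 0.03 (SD, n = 4), a change of 0.09 (SE 0.04, limma adjusted p = 0.340). Actn1, the nonmuscle alpha-actinin that crosslinks actin, was the negative one and did not overlap either, at -0.18 (SE 0.08, limma adjusted p = 0.382). The LIM protein Csrp2 (0.22), the actin nucleator Lmod1 of smooth muscle (0.60, above background on 2 of 4 controls), the LIM protein Pdlim7 (0.36) and the intermediate filament protein Synm (0.33) overlapped between groups. Myl6b was above background on 1 control array only. Serum response factor Srf (-0.02, SE 0.16) and myocardin Myocd (0.06, SE 0.05) had changes smaller than their standard errors or near them.

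**Figure D4:**
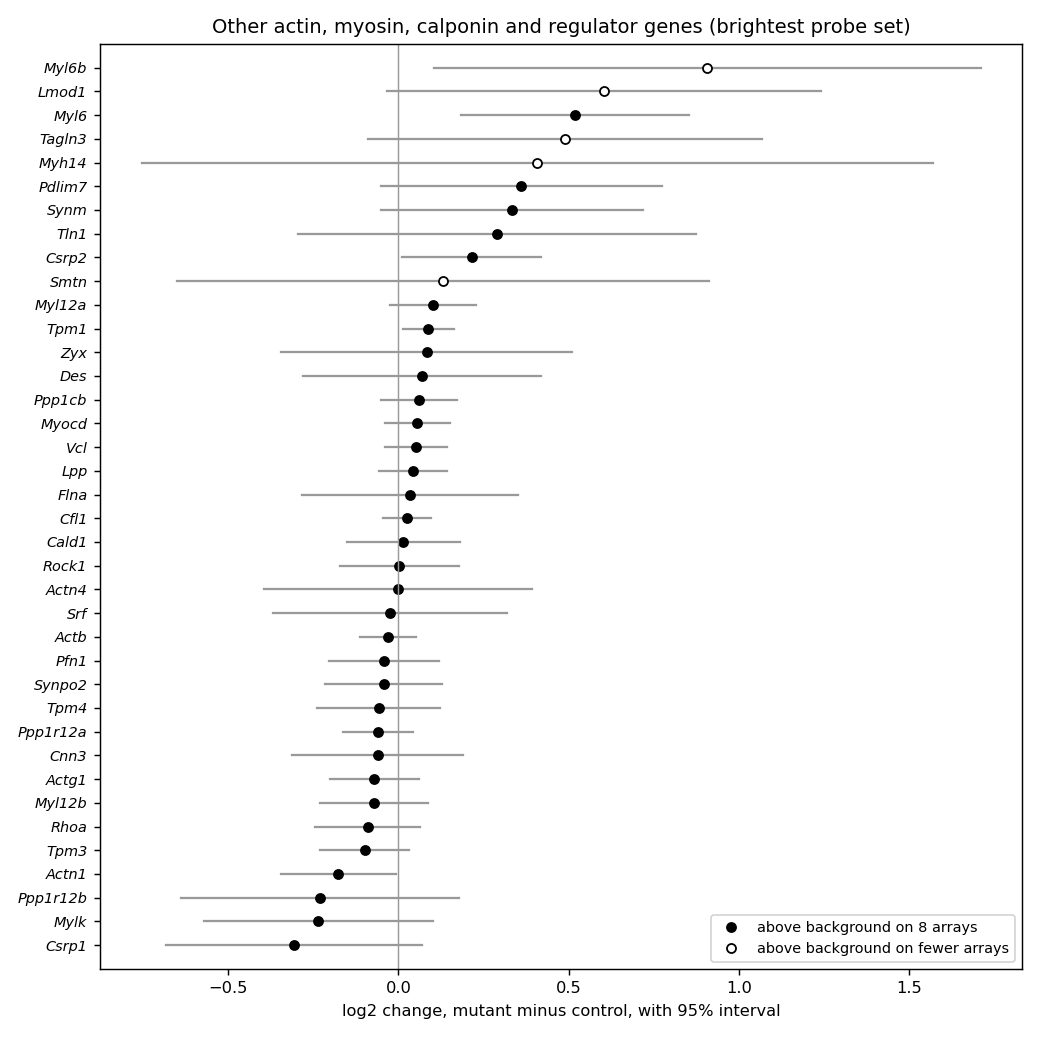
Log2 change, mutant minus control, with 95% interval of the brightest probe set of the 38 tested genes of the wider list, ordered by size; filled points were above background on all 8 arrays. Most intervals take in 0, and Myl6, Tpm1 and Csrp2 (higher) and Actn1 (lower) are the filled points whose interval does not.

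Summed marker levels of several cell types of the canal differed between the groups. In whole tissue, fewer cells of a type and less RNA per cell cannot be told apart. The summed deposited signal of 15 cardiomyocyte markers was 143724 to 171863 in the controls and 175934 to 199614 in the mutants, without overlap. Without Myl2 and Myl4, the brightest of the 15, the sums did not overlap either, at 111407 to 132527 and 138838 to 154620. Actb, for comparison, had deposited signals of 17438 and 16800 on controls 2 and 3 and 21887 and 22497 on controls 1 and 4. Its mutant signals were 19931 to 22440. The part of the scaling in the gaps between sums was not tested. On the normalized scale 14 of 15 cardiomyocyte markers had positive changes (93.3%, against 53.8% of all probe sets, median 0.11). Of the 15, 4 were higher without overlap (26.7%, against 4.44% of all). The sum of 11 epicardial markers was 6870 to 7559 and 8126 to 12852. All 9 tested ones had positive changes (100%, against 53.8% of all probe sets, median 0.56). Of the 9, 7 were higher at an unadjusted p under 0.05 in limma (77.8%, against 7.31% of all). Without Wt1, the brightest, the sums overlapped, at 4914 to 6264 and 5832 to 9339.

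The sum of 10 mural and smooth muscle markers outside the contractile genes was 13787 to 14910 in the controls and 15554 to 16283 in the mutants. That separation came from Myocd alone, since the other 9 markers summed to 2439 to 3920 and 2623 to 2692. Of 9 changes 8 were positive (88.9%, against 53.8% of all probe sets). None of the 9 tested mural markers had groups that did not overlap on the normalized scale, and 0 passed in limma, also at an unadjusted p under 0.05.

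Most changes of the cushion mesenchyme markers were negative. Of 10 markers 9 had negative changes (median -0.34), so that 10% were positive, against 53.8% of all probe sets. At an unadjusted p under 0.05 in limma 5 were lower, or 50% against 5.33% of all. Of the 10, 4 (Twist1, Sox9, Pdgfra and Vcan) did not overlap between groups, or 40% against 3.19% of all probe sets. None passed in limma, where Sox9 was at -0.54 (adjusted p = 0.0585) and Pdgfra at -0.73 (adjusted p = 0.0654). The sum of all 10 overlapped, at 39825 to 46947 and 36577 to 42524, and that of the 8 left without Tbx20 and Vcan, the brightest, did not, at 16371 to 19450 and 10281 to 16311.

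The sum of 10 endothelial markers was 10237 to 12178 in the controls and 9989 to 10705 in the mutants. Of 10 changes 8 were positive (80%, against 53.8% of all probe sets). Tek (Tie2) alone passed the test and fell, with a change of -0.72 (SE 0.07, limma adjusted p = 0.000172). Without Tek the sums did not overlap, at 5603 to 5875 and 5997 to 6891, and without Tek and Flt1 they did. The sum of 7 erythroid and blood markers was 32630 to 52277 and 39380 to 51015, with 6 of 6 changes negative (0% positive, against 53.8% of all probe sets). The sums without the brightest markers were added after seeing the data. None of the markers was below background on all 8 arrays. The part of any of these cell types in the contractile gene values was not tested.

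The RNA integrity ratios of Actb and Gapdh leaned in opposite directions between the groups, and both overlapped. The log2 ratio of 3 prime to 5 prime signal of Actb was 1.14 to 1.40 in the controls and 1.31 to 1.51 in the mutants, while that of Gapdh was 0.36 to 0.48 and 0.31 to 0.42. With the mean of both ratios as a covariate, the changes were 0.39 for Cnn2 (limma adjusted p = 0.186), 0.28 for Myl9 (0.270) and -0.88 for Tagln2 (0.318), as large as without it. With each array centred on its median instead of quantile normalized, the median change of all probe sets was 1.13; controls 2 and 3 had the highest medians. Relative to that, the brightest probe sets lay at 0.99 for Cnn2, 0.73 for Myl9, -0.99 for Tagln2, 0.63 for Acta2, 0.53 for Myh9 and 0.55 for Myh10. Before that median is taken off, the change of Tagln2 was 0.15 (limma adjusted p = 0.660), so its direction depends on the reference. Dimmer probe sets of the same genes lay lower, at -0.89 for Acta2 (1456658_at), -0.40 and -1.61 for Myh9 (1417472_at and 1420170_at) and -1.19 for Myh10 (1441057_at), so the probe sets of Acta2, Myh9 and Myh10 did not share a direction in this setting.

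Likeness of pattern was described by Pearson's r over the 8 arrays against 22151 other tested probe sets with 1 gene symbol. The genes most like Acta2 were Prmt3 (r = 0.98, Spearman's rho = 0.86), Sephs2 (0.96, 0.83), Higd1a (0.96, 0.83) and Stk17b (0.94, 0.86). Those most like Myh10 were Cops6 (0.995, 0.95), Cux1 (0.99, 0.86), Nnt (0.98, 0.69) and Dlg4 (0.97, 0.36). For Myh10, whose mutant 2 stood apart, r was well above the rank correlation for Nnt and Dlg4. With 8 arrays and this many candidates these values describe the arrays and are given without a test.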

How the data were processed

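Expression was measured in 8 pooled atrioventricular canal samples, 4 control and 4 mutant. The authors deposited intensities on a linear scale, 1 per probe set; the submitters' processing notes name MAS5, without its version or detection calls. Signals were taken as log2(signal + 16), so changes of dim genes are understated, and quantile normalized. After removal of 64 array controls, the dimmest 40% by mean were dropped and 27022 probe sets stayed. Groups were compared with limma 3.58.1 in R 4.3.3, with array weights and eBayes with trend and robust, two-sided; single values also had an exact permutation test, whose smallest p is 0.0286. Means and SDs are unweighted. Intervals are limma's at 95%. Arrays have no read depth; their number limits the precision. The fit was tested on simulated data.

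Gene names came from the platform annotation, and all 10 symbols matched RefSeq by Entrez ID. The named genes are every probe set of the 10, the 8 list members with the smallest p where fewer pass, and the 4 genes most like Acta2 and Myh10. The members and lists were chosen with earlier results of these data known. Scaling, pseudocount, filter, weights, moderation, a covariate, the replicate block and the arrays used were varied.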

Additional observations from a re-analysis of the deposited data

Results flagged for a closer look

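Of 36 sets of 4 arrays (18 tested probe sets in each group), 4 held an array set apart from the other 3 by more of the range than Dixon's 95% critical value allows, where chance gives about 1 in 20. Myh10 on 1452740_at was 11.54 in mutant 2 against 12.08 to 12.17 in the other mutants. Myh9 on 1420170_at, a dim probe set, was 7.20 in control 4 against 6.67 to 6.74 in the other controls. Tpm2 on 1449577_x_at was 9.67 in mutant 3 against 9.82 to 9.84. Acta2 on 1416454_s_at was 13.60 in mutant 3, where the others agreed at 13.64 to 2 decimals.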

How the results depend on the processing

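Over all probe sets, 12 passed, against 63 on the authors' scaling, 34 with a pseudocount of 64, 26 without the filter, 4 with the RNA integrity covariate, 2 without controls 2 and 3 and 0 with plain eBayes in limma (3022 at an unadjusted p under 0.05). Leaving out each array in turn gave counts of 5 to 1680, with 1680 without control 1, 1662 without control 4, 109 without control 3, 54 without mutant 3 and 5 without mutant 1. Of the contractile probe sets 0 passed (6 at an unadjusted p under 0.05), against 1 on the authors' scaling and 0 to 2 with an array left out. Of the wider list 0 passed, and 0 to 1 with an array left out. The count of contractile probe sets without overlap was 5, and 5 to 8 with an array left out, the highest without mutant 3. The share of all probe sets without overlap was 7.63%, and 9.71% to 20.4% with an array left out (10.8% without mutant 3). It was 5.47% with arrays centred on their medians. With arrays centred on their medians 19154 of all (17322 higher, 1832 lower, against 7 and 5), 14 contractile probe sets (13 higher, 1 lower) and 35 of the wider list passed, and 1 contractile probe set had no overlap; there Myh9 (1.67 and 0.74 on 1420172_at and 1417472_at) and Myh10 (1.68) changed sign, a setting that moved the median of all probe sets by 1.13. With the replicate block, 60 of all and 1 contractile probe set (Cnn2) passed. Same-numbered arrays had correlations of deviations from their group means of -0.11, 0.01, -0.13 and 0.17. Those of differently numbered arrays ran from -0.29 to 0.23. With 4 arrays in a group these values cannot decide whether the numbers pair the samples. Except where another cause is named, the cause was not tested. Of 342 values of single contractile probe sets under alternatives, 287 kept direction and call, 19 came past the limma threshold (11 of them with arrays centred on their medians), 5 had an unadjusted p of 0.0286 in the exact permutation test, 28 changed sign without a call and 3 changed sign with one. Signal over background limits Myh11 and the dim probe sets.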
